A study of Mus musculus with 9 samples.

Results

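Glutamate receptors and the scaffolds that hold them at the synapse were followed as a set of 41 genes among the 27497 gene identifiers of the deposited table. The members were the entries whose gene symbol named an AMPA (Gria), NMDA (Grin), kainate (Grik), delta (Grid) or metabotropic (Grm) glutamate receptor gene, a calcium channel gamma subunit gene of the family that holds the TARPs (Cacng2 to Cacng8), or a scaffold gene of the Dlg, Dlgap or Shank families. Polyadenylated RNA was sequenced from the whole olfactory bulb of each animal, an adult C57/BL6 mouse of 6 to 8 weeks or more. Values are RPKM, the reads on a gene per kilobase of its length, scaled to the size of the library. There were 3 groups of 3 mice, with no transgene or other treatment in any group. Clean air mice were held in carbon-filtered air. The 30 min mice were taken directly after 30 min of an odorant mixture. The 120 min mice had the same 30 min of odorants and then 90 min of clean air. The question set by the series is which transcripts respond quickly to natural neuronal activity. Here it was put to the genes of glutamate receptors and their scaffolds.

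Glutamate is the transmitter by which olfactory sensory neurons drive the bulb and by which mitral and tufted cells excite granule cells. AMPA and kainate receptors carry fast currents, NMDA receptors add slower, calcium-permeable currents, and metabotropic receptors signal through G proteins. TARPs are auxiliary subunits that bring AMPA receptors to the synapse, and scaffolds of the PSD-95 (Dlg), GKAP (Dlgap) and Shank families stack under the membrane and bind receptor tails, one layer to the next. In whole bulbs, fewer cells of a type and less RNA per cell cannot be told apart.

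The contact between receptors and PSD-95 family scaffolds runs through the last residues of the receptor tail, which dock into PDZ domains. The ends of the coding sequences below show which members share that tail and are printed because the GluN2 and TARP subunits among them recur in the results. Each holds the last 27 coding bases and the stop codon, 5′ to 3′, with the last 4 codons in capitals. They were taken from the transcript with the longest complete coding sequence in GENCODE M21, which gave one for 40 of the 41 members.
Grin2a: aaaatgcctagtattGAATCTGATGTCtaa
Grin2b: aaactttctagtattGAGTCTGATGTCtga
Grin2c: cggatctccagcctgGAATCAGAAGTGtga
Grin2d: cacttctccagcctgGAGTCCGAGGTAtga
Cacng2: acagccaaccgccggACCACGCCCGTAtga
Cacng3: ccggccaacagacgtACCACGCCTGTCtga
Cacng4: atgctgaaccggcggACGACTCCCGTGtga
Cacng5: tatgaccagatgtcaTCATCTCCCTGCtga
Cacng7: catctccacatctccACTTCGCCGTGCtga

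The last codon began with GT in 8 of the 40 members: the 4 Grin2 genes, Cacng2, Cacng3, Cacng4 and Grm7. All of these but Grm7, so 7 members, also had a serine or threonine codon 2 places before the last. The member without a complete coding sequence was the TARP gene Cacng8, so its ending is not known here. Cacng5 and Cacng7 both closed with TGC. The GKAP scaffolds had an ending of their own, printed here because the family is the link from PSD-95 down to the Shank layer.
Dlgap1: tacatccccgaggcgCAGACCCGGCTCtga
Dlgap2: tacatccctgaggccCAGACGCGGCTCtga
Dlgap3: tacatccccgaggccCAGACCAGGCTGtga
Dlgap4: tatgtccccgaggccCAGACCAGGCTCtaa
All 4 Dlgap endings read CAG, ACN, NGG and CTN in their last 4 codons. The table reports genes and not transcripts, so a sequence shows what the annotated gene can encode and not which form was present in these bulbs.

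The libraries held 8.82 to 28.8 megareads in the 30 min group, 10.5 to 29.9 in clean air and 7.15 to 24.2 at 120 min, as recovered from the spacing of the values. At these depths 3 counts on a transcript of 1 kb equalled 0.1004 to 0.419 RPKM. Fos, an early gene of neuronal activity, checked the labels: it stood at 4.04 to 12.1 RPKM in clean air, 131 to 171 at 30 min and 17.2 to 25.0 at 120 min. Across all 12780 genes tested, 18 passed an adjusted p of 0.05 at 30 min and 11 at 120 min, both against clean air. The 7 markers of frontal cortex, which lies next to the bulb, summed to 35.9 to 46.0 RPKM in clean air, 34.5 to 38.2 at 30 min and 35.5 to 42.5 at 120 min. Of these, 4 averaged 1 RPKM or more, with most of the sum in Cux2 (18.3 to 30.5 RPKM), and Neurod6 reached at most 1.09 RPKM. The bulb markers were present, with Th, the dopamine synthesis enzyme gene, at 157 to 262 RPKM.

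In clean air the scaffold Dlg4, which encodes PSD-95, was the most abundant member at 316 ± 9.38 RPKM (SD, n = 3 here and in each group below), above 99.6% of all identifiers. Grin1, the subunit that every NMDA receptor needs, followed at 223 ± 38.2 RPKM. Cacng7, an auxiliary subunit of AMPA receptors, stood at 195 ± 12.8 RPKM, which is within the spread of Grin1. The kainate subunit Grik5 had 143 ± 15.5 RPKM. The scaffolds Dlgap4 (128 ± 18.9), Dlgap1 (119 ± 23.0) and Dlgap3 (115 ± 20.6 RPKM) and the AMPA subunit Gria1 (109 ± 17.6 RPKM) came next and did not differ from each other beyond their spread. Of the metabotropic receptors, Grm2 was highest at 78.6 ± 21.7 RPKM. Toward the other end, Grin2a had 1.46 ± 0.444 RPKM and Grin3b 1.32 ± 0.664. Grm6, known for its role in retinal bipolar cells, is listed at 0 in all 9 libraries and was not tested. The other 40 members passed the minimum mean of 1 RPKM.

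**Figure D1:**
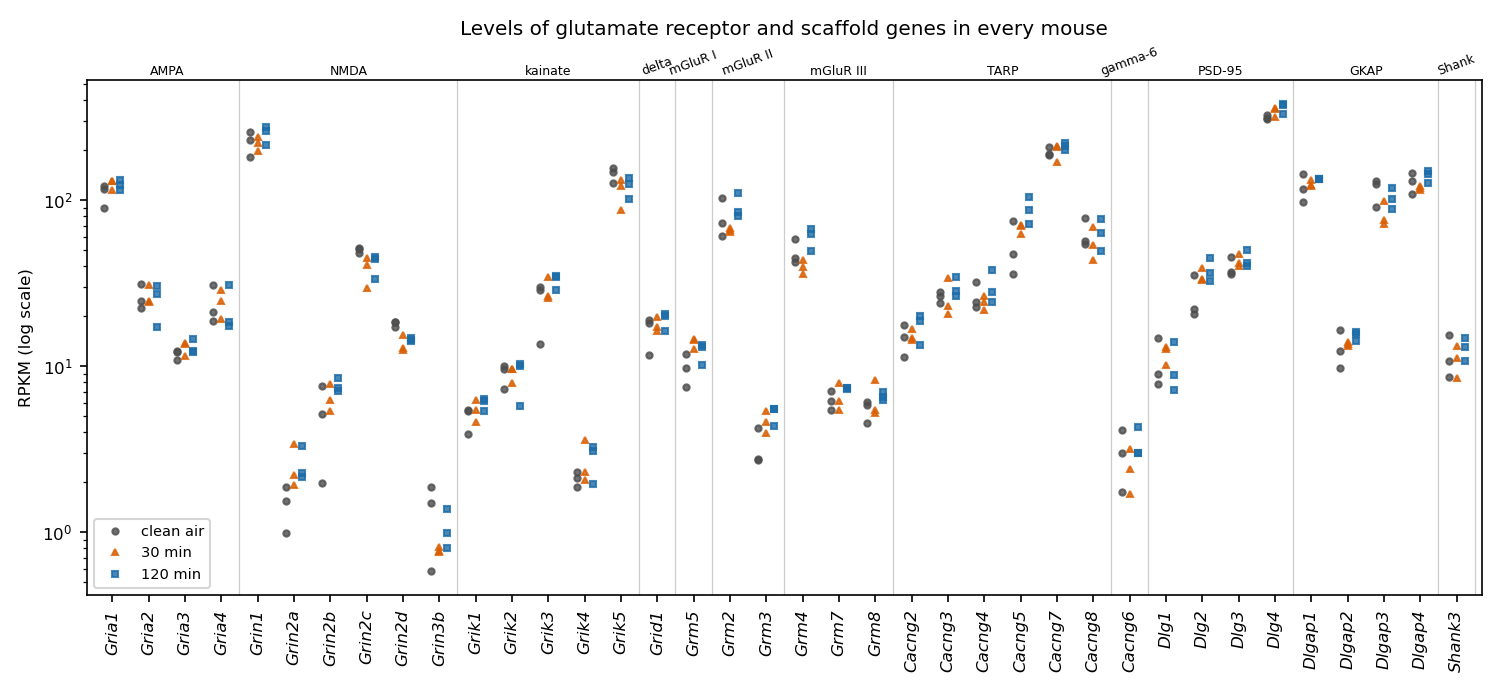
RPKM (log axis) of 38 of the 40 members above 0, 1 point per mouse, with genes grouped by family. Dlg4, Grin1 and Cacng7 lie at the top in all 3 groups, and Grin2a and Grin3b are near the bottom.

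Within the AMPA family, Gria1 made up 64.0% ± 4.14 of the summed RPKM in clean air. Gria2, whose product makes AMPA receptors impermeable to calcium, contributed 15.2% ± 1.20. Gria4 held 13.8% ± 2.95 and Gria3 6.97% ± 0.583. The level of Gria1 was 109 ± 17.6 RPKM and that of Gria2 25.97 ± 4.57 RPKM. In the odor groups Gria1 had 125 ± 9.004 RPKM at 30 min and 123 ± 9.07 at 120 min, and Gria2 26.5 ± 3.57 and 24.9 ± 6.85. The share of Gria2 differed from clean air by -1.18 percentage points at 30 min and by -1.77 at 120 min, neither past the test (exact permutation test, two-sided, p = 0.3 and 0.4, adjusted p = 0.857 for both). With 3 mice against 3, the smallest p this test can give is 0.1.

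Among the GluN2 subunits, which set the kinetics of NMDA receptors, Grin2c led with 67.3% ± 2.16 of their summed RPKM in clean air and Grin2d held 24.3% ± 2.12. GluN2C and GluN2D are the subunits known for a weaker block by magnesium. Grin2b had 6.45% ± 3.41 and Grin2a 1.96% ± 0.523. The longest GENCODE transcripts have 24060 bases for Grin2b and 14634 for Grin2a, beside 4895 for Grin2c and 5431 for Grin2d. Their G and C bases make up 45.7% and 44.8%, beside 62.1% and 65.0%. The part of length and base composition in these shares was not tested. In the odor groups the Grin2a share was 3.15% to 4.73% in each of the 6 mice, and in clean air 1.43% to 2.48%, a difference that was not tested. The Grin2b share was 8.90% to 12.9% in the odor mice and 2.87%, 6.81% and 9.67% in clean air mice 2, 1 and 3, so those ranges overlapped. The ratio of Grin1 to the summed Grin2 RPKM was 2.63 to 3.30 in clean air, 3.08 to 3.97 at 30 min and 3.62 to 4.06 at 120 min, so only the 120 min mice lay clear of clean air; the ratio was not tested.

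Other families were also mostly led by a single gene. Grik5 held 78.1% ± 4.74 of the kainate subunits and Grik3 13.1% ± 4.78. Cacng7 held 51.7% ± 3.34 of the TARPs, and Cacng8 and Cacng5 followed. Dlg4 held 80.7% ± 2.40 of the 4 Dlg scaffolds, while the GKAP family was split between Dlgap4 (34.2%), Dlgap1 (31.8%) and Dlgap3 (30.6%), with 3.40% for Dlgap2. Grm2 made up 46.3% ± 4.91 of the metabotropic receptors and Grm4 28.9% ± 2.95. The shares of Gria2 among AMPA subunits, of Grin2b in Grin2a plus Grin2b and of Dlg4 among Dlg scaffolds were compared between the 3 groups, and none of these 9 comparisons passed (exact permutation test, adjusted p from 0.857 to 1.0). With 3 mice against 3, the smallest p this test allows is 0.1.

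**Figure D2:**
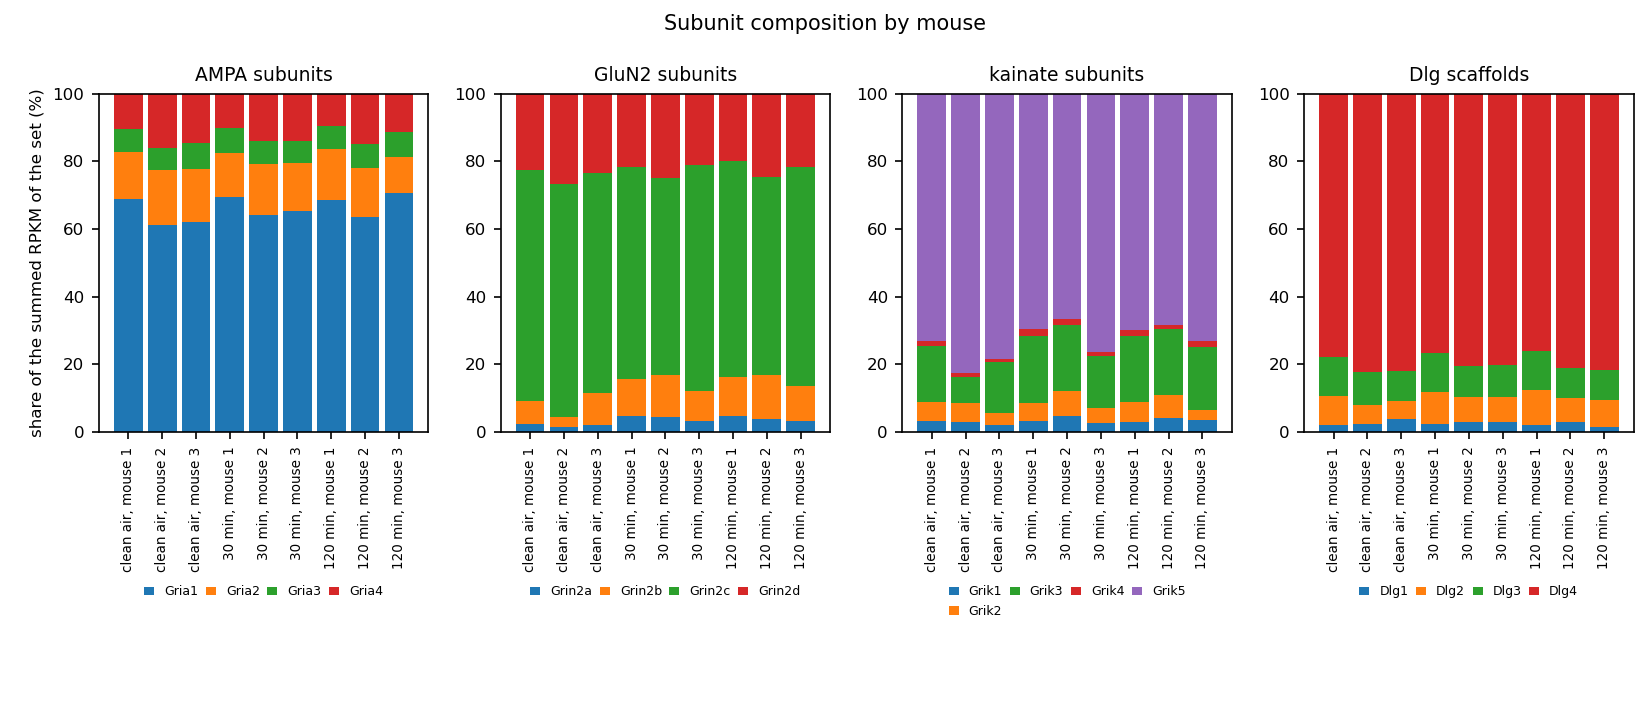
Share (%) of each subunit in the summed RPKM of its set, 1 bar per mouse, for AMPA, GluN2 and kainate receptor genes and Dlg scaffold genes. Gria1, Grin2c, Grik5 and Dlg4 are the largest parts of their bars in all 9 mice.

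After 30 min of odor, none of the 40 tested members passed the test, against 0.141% of all genes (limma on log2(RPKM + 0.5), Benjamini-Hochberg adjusted p under 0.05). At an unadjusted p under 0.05 there were 4 members, among them Grm5 with a difference above 0 and Grin2d and Dlgap3 below it. These are 10% of the members, against a background of 5.92% of all genes (3.62% above and 2.3% below clean air). The median log2 difference of the members was 0.09, beside 0.08 for all genes tested, with 26 of 40 above 0 against 61.8% of all genes. The members as a set lay close to the genes at large. The comparisons of 30 min and 120 min share the clean air mice, so their values are not independent.

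Grin2d, a GluN2 subunit gene, stood at 17.2, 18.5 and 18.4 RPKM in clean air mice 1, 2 and 3 and at 15.5, 12.5 and 12.8 RPKM in the 30 min mice. All 3 odor values lay below all 3 clean air values. The log2 difference was -0.40 ± 0.15 (SE), with an unadjusted p of 0.0198 and an adjusted p of 0.792. Grin2c had clean air values of 51.3, 47.8 and 50.6 RPKM, beside 44.9, 29.3 and 40.5 at 30 min, again without overlap, with a difference of -0.40 ± 0.19 (adjusted p = 0.826), or -0.22 without 30 min mouse 2. The scaffold gene Dlgap3 had a difference of -0.49 ± 0.20 (adjusted p = 0.818), but clean air mouse 1 (91.3 RPKM) lay within the 30 min range of 71.3 to 98.1.

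Grm5, which encodes a group I metabotropic receptor that couples to calcium release, stood at 11.8, 7.50 and 9.67 RPKM in clean air and at 14.6, 14.4 and 12.7 RPKM at 30 min. The groups did not overlap, and the difference was 0.52 ± 0.20 (adjusted p = 0.818). Grin2a had clean air values of 1.87, 0.99 and 1.53 RPKM, beside 3.38, 2.22 and 1.91 at 30 min, without overlap, with a difference of 0.61 ± 0.28 (adjusted p = 0.824). At this level the added 0.5 RPKM understates the fold. Grm3 (0.48 ± 0.22) and the scaffold gene Dlg2 (0.46 ± 0.21) were also among the 8 members with the smallest p, with adjusted p of 0.824 and 0.826. The groups overlapped for both genes. With 1 mouse left out the difference of Dlg2 ran from 0.31 to 0.69, the highest without clean air mouse 1. Of the 6 markers of astrocytes, which also express Grm3, 5 lay above 0 at 30 min with a median of 0.26. None was called, and 2 lay above clean air at an unadjusted p under 0.05 (background 3.62%). The 6 markers summed to 921 to 1413 RPKM in clean air and 1168 to 1383 at 30 min. Their part in the result was not tested. In all, 5 of 40 members did not overlap between the groups (12.5%, against 11.4% of all genes), 3 above clean air (background 7.29%) and 2 below it (background 4.08%).

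At 120 min, 0 of 40 members passed, against 0.0861% of all genes. At an unadjusted p under 0.05 there were 5 members, or 12.5%, against a background of 9.57%. All 5 lay above clean air (5.72% of all genes did), among them Cacng5, Grm3, Dlg2 and Grin2a. The median log2 difference of the members was 0.19, beside 0.03 for all genes, with 30 of 40 above 0 against 53.9%. The groups did not overlap for 7 members (17.5%, against 13.1% of all genes), namely Dlg4, Grin2a, Grm3, Grm7 and Grm8 above clean air (background 7.86%) and Grin2c and Grin2d below it (background 5.27%).

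Cacng5, a TARP-related auxiliary subunit gene, had 75.2, 36.0 and 47.6 RPKM in clean air mice 1, 2 and 3, 71.0, 62.5 and 69.4 at 30 min and 104, 71.4 and 87.3 at 120 min. The 120 min value of mouse 2 lay below the highest clean air value, and the other 2 lay above it. The difference from clean air at 120 min was 0.77 ± 0.25, a fold of 1.704 on this scale, and it had the smallest adjusted p of the members (0.364). Grm3, a group II receptor gene, had clean air values of 4.26, 2.70 and 2.75 RPKM, beside 5.51, 4.34 and 5.49 at 120 min, with no overlap and a difference of 0.61 ± 0.22 (adjusted p = 0.428). Of the 6 astrocyte markers, 4 lay above 0 at 120 min with a median of 0.21. None was called, and 1 lay above clean air at an unadjusted p under 0.05 (background 5.72%). The 6 markers summed to 1093 to 1536 RPKM at 120 min, and their part in the result was not tested.

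Dlg2, the scaffold gene of PSD-93, had clean air values of 35.3, 20.7 and 22.1 RPKM, beside 44.5, 32.7 and 36.5 at 120 min, with a difference of 0.56 ± 0.21 (adjusted p = 0.448). Mitral and tufted cell markers, of which 8 were measured, had 5 above 0 at 120 min with a median of 0.34. None was called, and 3 lay above clean air at an unadjusted p under 0.05 (background 5.72%). The 8 markers summed to 1045 to 1442 RPKM in clean air and 1151 to 1227 at 120 min. Most of that sum was Doc2g and Slc17a7, which overlapped clean air. Tbx21 (15.7 to 20.1, then 23.1 to 26.4 RPKM) and Reln (18.65 to 41.1, then 57.15 to 59.9) did not overlap, and all other markers of the list did. The part of these markers in the members' values was not tested.

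Grin2a had 3.30, 2.27 and 2.14 RPKM at 120 min, each above the highest clean air value of 1.87, with a difference of 0.65 ± 0.28 (adjusted p = 0.497). Grin2b differed by 0.75 ± 0.36 (adjusted p = 0.552) and Grik3 by 0.51 ± 0.27 (adjusted p = 0.595). Both have a clean air value in mouse 2 well below those of mice 1 and 3, at 1.99 RPKM for Grin2b and 13.6 for Grik3. Without that mouse the differences were 0.27 and 0.15. Grin2d stood at 14.3, 14.2 and 14.7 RPKM, again below all clean air mice, with -0.31 ± 0.15 (adjusted p = 0.540). Dlg4, the most abundant member, had 313, 309 and 327 RPKM in clean air, 316, 352 and 356 at 30 min and 329, 373 and 380 at 120 min. The 120 min values all lay above clean air. The summed RPKM of the 4 Dlg scaffolds was 375 to 402 in clean air, 413 to 444 at 30 min and 432 to 466 at 120 min. Neither odor group overlapped clean air in that sum. Most of it was Dlg4, which by itself overlapped clean air at 30 min. The summed RPKM of the TARPs also lay above clean air at 120 min (415 to 468 against 346 to 404). Neither sum was tested.

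**Figure D3:**
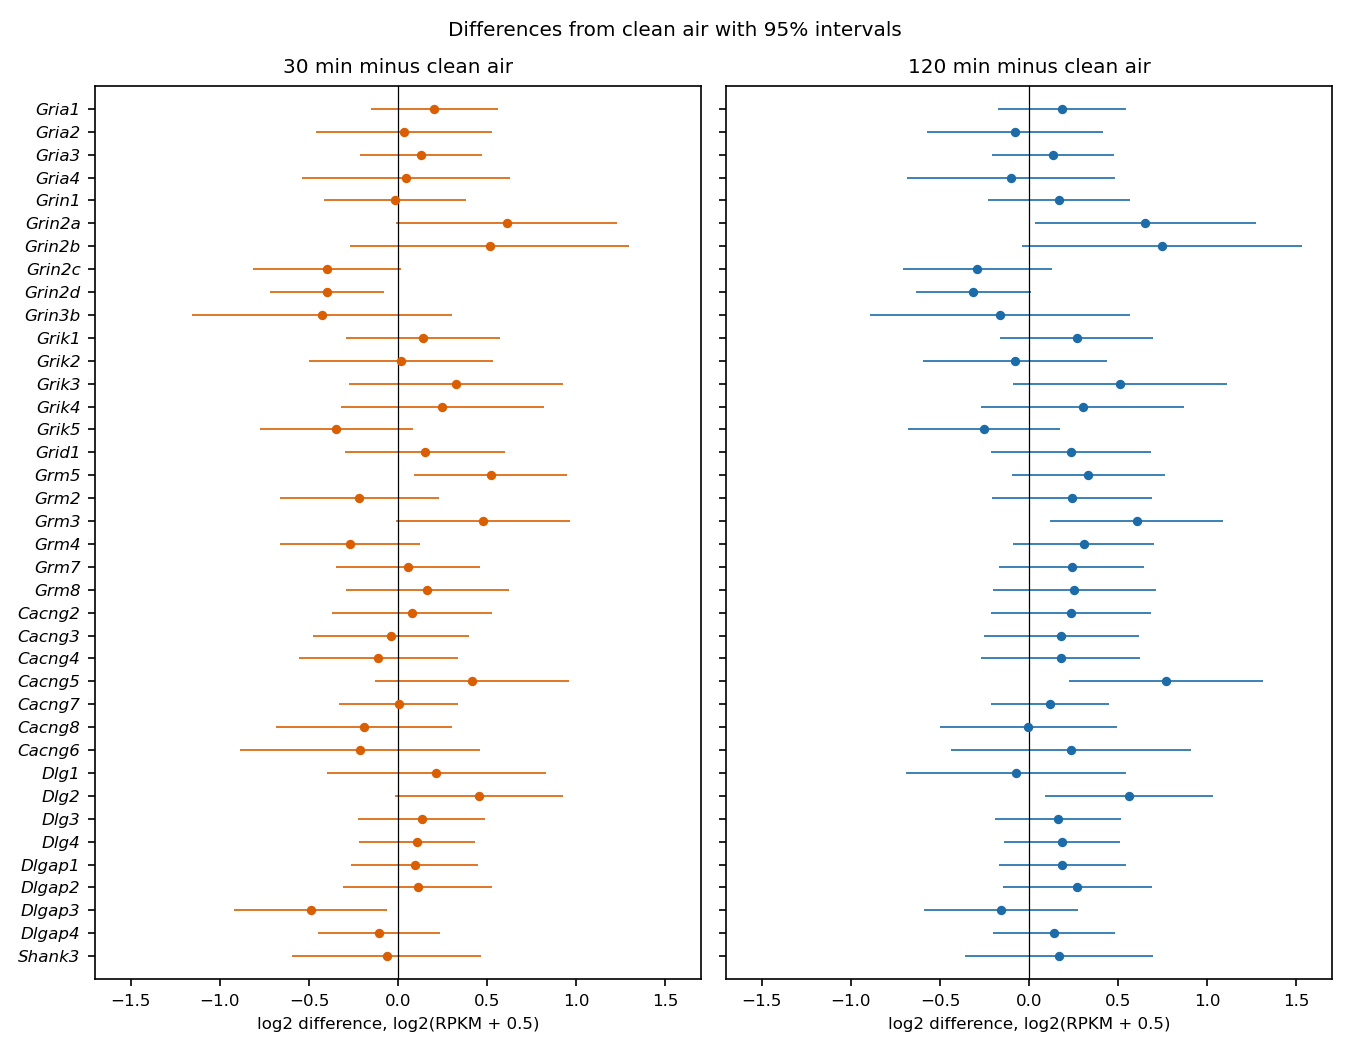
Log2 difference from clean air of 38 of the 40 tested members at 30 min (left) and 120 min (right), with 95% confidence intervals from the limma fit. Points lie from -0.49 to 0.61 at 30 min and from -0.31 to 0.77 at 120 min, and no member passes after adjustment.

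Between 120 min and 30 min, which share no mice but sit on the same fitted spread, 0 of 40 members passed (background 0.0782%). At an unadjusted p under 0.05 there were 2 members, Grm4 and Grm2, both higher at 120 min (5.0%, against 3.36% of all genes in either direction and 1.38% in that direction). The median of the members was 0.12, beside -0.03 for all genes, and 33 of 40 lay above 0 against 43.7%. Grm4, a group III receptor gene of the presynaptic kind, had 43.3, 36.0 and 39.6 RPKM at 30 min and 66.9, 49.3 and 62.9 at 120 min, with clean air at 44.5, 42.2 and 58.1. The difference of 120 min from 30 min was 0.58 ± 0.18 (unadjusted p = 0.00816, adjusted p = 0.999). Grm2 had 65.8, 67.5 and 64.5 RPKM at 30 min and 80.5, 84.6 and 110 at 120 min, a difference of 0.46 ± 0.20 (adjusted p = 0.999). For Grm2, clean air ranged from 60.5 to 103 RPKM and overlapped both odor groups, and the clean air values of Grm4 also overlapped both.

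Among the next members in order of p, Dlgap3 differed by 0.33 ± 0.20, Dlgap4 by 0.24 ± 0.16, Cacng6 by 0.45 ± 0.31, Cacng5 by 0.35 ± 0.25, Cacng4 by 0.29 ± 0.20 and Cacng3 by 0.22 ± 0.20, each with an adjusted p of 0.999. Single mice carried much of some of these: without 120 min mouse 3 the differences of Cacng3, Cacng4 and Cacng6 were 0.11, 0.11 and 0.29, without 120 min mouse 1 that of Cacng5 was 0.22, without 30 min mouse 3 that of Cacng6 was 0.26, and Cacng3 had 0.08 without 30 min mouse 1 and 0.43 without 30 min mouse 2. By family, the difference was above 0 for all 6 NMDA subunit genes, all 6 TARP genes, all 4 GKAP genes and all 3 group III receptor genes, and for 4 of 5 kainate subunit genes, 3 of 4 Dlg genes and 1 of 4 AMPA subunit genes. Some of these counts moved with the scaling: AMPA was 2 with median-centred libraries and 3 with GC correction, and NMDA was 5 with GC correction and 3 with GC and length correction, where kainate was 3. They also moved with single mice. AMPA was 0 without 30 min mouse 3 or 120 min mouse 2, and 3 without 120 min mouse 3. Without 30 min mouse 2, NMDA was 4, kainate 2 and Dlg 2. Dlg was 1 without 120 min mouse 1, and group III was 2 without 30 min mouse 1. All 6 TARP and all 4 GKAP genes stayed above 0 in each fit, but the fits reuse the same mice and are not independent. Several of these TARP and GKAP differences were smaller than their standard error. The groups did not overlap for 6 members, all higher at 120 min (15%, against 10.6% in either direction and 4.99% of all genes in that direction): Cacng5, Dlgap1, Dlgap2, Dlgap4, Grm2 and Grm4. For the F test over 3 groups no member passed (0.164% of all genes did), and Cacng5, Grin2d, Grm3 and Grm4 had an unadjusted p under 0.05 (10%, against 6.64%).

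Grin1 had 223 ± 38.2, 219 ± 22.4 and 250 ± 31.7 RPKM in clean air, at 30 min and at 120 min, and Cacng7 had 195 ± 12.8, 196 ± 22.8 and 212 ± 10.3. Dlgap1, which encodes GKAP itself, stood at 119 ± 23.0, 126 ± 5.29 and 134 ± 0.5853 RPKM. Grik5, the kainate subunit that assembles with Grik1 to Grik3 products, had 143 ± 15.5, 114 ± 23.6 and 120 ± 17.7 RPKM. Cacng8 had 63.1 ± 12.8, 55.4 ± 12.6 and 63.1 ± 13.7 RPKM, and Shank3, the scaffold of the deepest layer, 11.6 ± 3.46, 10.9 ± 2.41 and 12.8 ± 2.06. These values overlapped between groups for each of the genes except Dlgap1, whose 120 min mice lay above its 30 min mice. The group III receptor genes Grm7 and Grm8 stood lower: Grm7 had 6.21 ± 0.823, 6.51 ± 1.25 and 7.37 ± 0.0814 RPKM and Grm8 5.48 ± 0.798, 6.29 ± 1.68 and 6.59 ± 0.393. At 120 min both lay just above every clean air mouse, with lowest values of 7.28 and 6.23 RPKM beside highest clean air values of 7.07 and 6.06.

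The fits bound how large a difference these mice could hide. The median standard error of a member was 0.20 on the log2 scale. The 95% interval lay within a change of 1 in either direction for 35 of 40 members at 30 min, 32 at 120 min and 38 between the odor groups. Members whose interval reached past that at 30 min included Grin2a, Grin2b and Grin3b, each under 10 RPKM in every mouse. At 120 min they included Grin2a, Grin2b and Grm3, and also Cacng5 (36.0 to 104 RPKM), Grik3 (13.6 to 34.6) and Dlg2 (20.7 to 44.5). The interval lay within a 1.5-fold change for 16 of 40 members at 30 min, 10 at 120 min and 14 between the odor groups. For Dlg4 the interval at 30 min ran from -0.22 to 0.43, for Gria1 from -0.15 to 0.56 and for Grin1 from -0.42 to 0.38.

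Many members deviated together in single mice. Clean air mouse 2 had the lowest of the 9 values for 16 of the 40 members, or 40.0%, against 18.2% of all genes. Without that mouse, the members at an unadjusted p under 0.05 numbered 1 at 30 min (Grin2d) and 1 at 120 min (Cacng5). Without clean air mouse 1 they numbered 10 and 7. Leaving out 30 min mouse 2 left 1 member at 30 min, and leaving out 120 min mouse 1 left 1 member at 120 min (Cacng5). In each of these fits 0 members passed after adjustment.

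**Figure D4:**
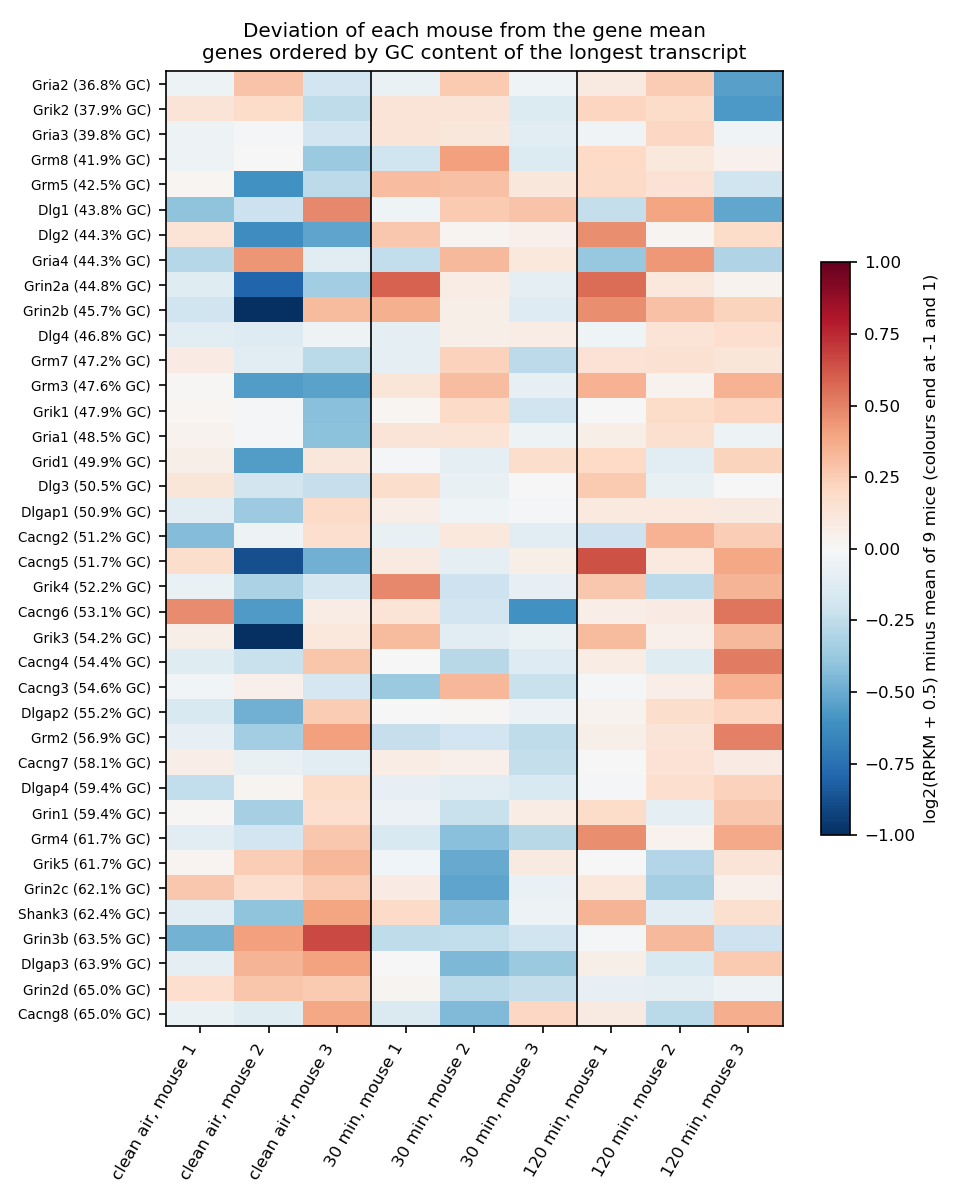
Deviation of each mouse from the mean of 9 mice, in log2(RPKM + 0.5), for 38 of the 40 tested members ordered by the GC content of the longest GENCODE transcript (36.8% to 65.0%). Clean air mouse 2 is blue for Grin2a, Grin2b, Cacng5 and Grik3, and the GC-rich members at the bottom are blue in 30 min mouse 2.

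Differences and deviations also moved with the base composition of the transcripts. Across the 40 members, which share the same 9 libraries, the log2 difference at 30 min had a Spearman correlation of -0.691 with the GC content of the longest transcript, and of -0.37 over the 12132 genes with a value. The 20 members below the median GC of 51.1% had a median difference of 0.16, and the 20 at or above it -0.11. Grin2d (65.0% GC), Dlgap3 (63.9%) and Grin2c (62.1%) are in the GC-rich part, and Grm5 (42.5%) and Grin2a (44.8%) in the GC-poor part. At 120 min the correlation was -0.339 among members and -0.101 over all genes. In 30 min mouse 2 alone the deviation had a correlation of -0.809 with GC among members, and in clean air mouse 3 of 0.627. After each library was corrected for GC, a fit chosen after seeing the data, the median at 30 min was 0.015 and no member had an unadjusted p under 0.05 there, while Cacng5, Grm3 and Grm4 had one at 120 min. Transcript length also went with the differences. The Spearman correlation with the length of the longest transcript was 0.514 among members at 30 min (0.24 over all genes) and 0.232 at 120 min (0.327). Between the odor groups it was -0.512 among members and 0.153 over all genes. The part of base composition or length in any single gene's value was not tested.

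**Figure D5:**
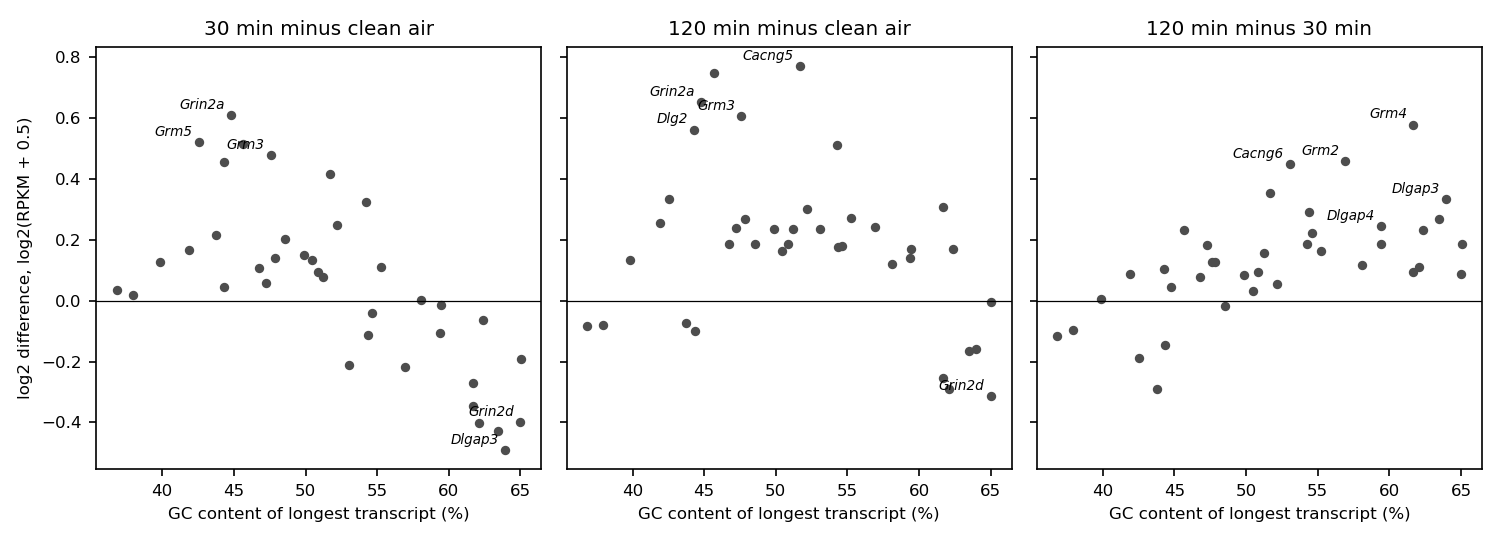
Log2 difference of 38 of the 40 tested members against the GC content of the longest transcript, for the 3 comparisons; the 5 of them with the smallest p are named in each panel. The points slope down at 30 min and up between 120 min and 30 min (Spearman -0.691 and 0.631 over all 40).

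The other genes of the glutamate synapse came from a list of 65, chosen with earlier results of these data known. Of these, 59 were found in the table and tested, and 6 were not analysed here. At 30 min, 1 of the 59 passed: Arc, which drives removal of AMPA receptors from synapses. It stood at 15.1, 21.03 and 40.0 RPKM in clean air and at 247, 273 and 336 at 30 min, without overlap. Arc rose by 3.57 ± 0.29, an 11.9-fold change (adjusted p = 0.000276). At 120 min it was at 43.3, 39.5 and 34.8 RPKM, lower than at 30 min by a log2 difference of -2.84 ± 0.29 (adjusted p = 0.00344), and it was the only gene of the list called in that comparison.

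At 120 min none of the 59 passed limma's adjusted test in the main fit, which did not group mice by number. In that fit 11 had an unadjusted p under 0.05, all above clean air (18.6%, against 5.72% of all genes in that direction). Homer1, which links metabotropic receptors to Shank scaffolds, had clean air values of 12.3, 14.4 and 5.55 RPKM, beside 29.2, 44.5 and 25.0 at 120 min, with no overlap and a difference of 1.63 ± 0.34 (adjusted p = 0.310). At 30 min it stood at 12.3, 17.4 and 10.7 RPKM, with 0.38 ± 0.34 (adjusted p = 0.858). Homer1 is also the gene of a short, activity-induced form, which the table does not separate from the long scaffold. The next in order at 120 min were Cnksr2 (0.68 ± 0.18), Nptx2, a secreted protein that clusters AMPA receptors (0.61 ± 0.19), and Nlgn3, a postsynaptic adhesion protein (0.64 ± 0.20), with adjusted p of 0.340, 0.361 and 0.364. At 30 min, 45 of 59 genes of the list lay above 0 (76.3%, against 61.8% of all genes), with a median of 0.18 beside 0.08. At 120 min there were 46 (78.0%, against 53.9%), with a median of 0.20 beside 0.03. Because the list was chosen with earlier results of these data known, these shares cannot test synapse genes as a set.

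Of the remaining named genes of that list, Srgap2 (0.46 ± 0.18), Cnksr2 (0.42 ± 0.18) and Slc1a3, an astrocyte glutamate transporter (0.37 ± 0.15), had the smallest p at 30 min after Arc, each with an adjusted p of 0.818. Without clean air mouse 3 the difference of Srgap2 was 0.30. The astrocyte marker values given beside Grm3 at 30 min apply to Slc1a3 as well. Between 120 min and 30 min, Homer1 (1.24 ± 0.34), Shisa7, a further auxiliary receptor protein (0.51 ± 0.17), and Baiap2, a scaffold (0.58 ± 0.21), had an adjusted p of 0.999. Baiap2 stood at 185, 132 and 185 RPKM at 120 min and at 122, 91.5 and 120 at 30 min.

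Promoters were searched for the palindromic cAMP response element TGACGTCA, the binding motif of CREB, which reads the same on both strands. RefSeq promoters of build GRCm38.p6 covering 250 bases before to 50 after the start were held for 29 of the 41 members. None of their 42 promoters contained it, against 588 of 32851 promoters overall (1.79%). These letters were not in this window, and no more follows from it.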

How the data were processed

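Polyadenylated RNA of 9 olfactory bulbs was sequenced from paired ends, per the labels' protocols. The authors deposited RPKM, 27497 identifiers by 9 mice, made from reads aligned with Bowtie to mm9 per the submitters' processing notes. Not given in the sources used here are its version, the annotation, the counting rule and whether strand was used, so overlapping and antisense genes cannot be told apart. Columns were matched to mice by the codes in the sample descriptions.

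The 12780 genes averaging 1 RPKM or more were tested with limma 3.58.1 (R 4.3.3; lmFit, eBayes with trend, two-sided) on log2(RPKM + 0.5), 1 fit over all 9 mice with 3 contrasts and an F test, Benjamini-Hochberg adjusted over all genes. Errors of differences are standard errors, and fold changes understate low genes. Subunit shares were compared by exact permutation tests, adjusted over 12. Groups are separate mice, so p-values measure the spread between mice.

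Depth was recovered from the steps of low values of short RNAs; 83.7% to 91.9% were whole within 0.05 of a read. Floors of 3 counts cover counting error only. GC content, length and coding ends came from GENCODE M21 by identifier (12132 of 12780 tested genes, all 40 tested members). That annotation is of a later build, so no coordinates are given. The scripts were tested on simulated data. Values of 2 tested members are not reported here, though counts and medians include them.

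Levels may be named for every member, with tests for those called and for the 8 with the smallest p in each comparison. For the list of 65 synapse genes these were the called genes, the 4 with the smallest p, Arc and Homer1. Members, lists and rules were chosen with earlier results of these data known. Marker lists covered mitral and tufted, granule, dopaminergic, cortical, sensory neuron, astrocyte, oligodendrocyte and red blood cells. Alternatives were the pseudocount, filter, scaling, groups in the fit, array weights, a replicate block, leaving out each mouse and, added after seeing the data, GC and length corrections.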

Additional observations from a re-analysis of the deposited data

How the results depend on the processing

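The count of called members was 0 in all 3 comparisons and in the F test under every alternative that was run, including each mouse left out. Pseudocounts of 0.1 and 1, a minimum mean of 5 RPKM or none, values rescaled to TPM, quantile scaling, array weights and fits of only the groups compared kept every named difference on its side of 0 and of the threshold. The median log2 difference of members at 30 min was 0.086; it was 0.006 with median-centred libraries, 0.015 with GC correction, 0.015 with GC correction and the replicate block together, and -0.002 with GC and length correction. With a mouse left out, that median ran from 0.043 to 0.105, at 120 min from 0.135 to 0.255, and between the odor groups from 0.104 to 0.166. The Homer1 difference at 30 min ran from -0.013 without clean air mouse 3 to 0.636. Over all genes, 11 calls at 120 min became 2 with only the groups compared in the fit, 7 with array weights, a minimum mean of 5 RPKM or GC and length correction, 4 with GC correction and the replicate block, 0 without clean air mouse 2 or 120 min mouse 3, 3 without 120 min mouse 1 or 2, and 6 without clean air mouse 1. Members at an unadjusted p under 0.05 numbered 4, 5 and 2 at 30 min, 120 min and between the odor groups; array weights gave 2, 3 and 2, GC correction 0, 3 and 2, and leaving out a mouse 1 to 10, 1 to 7 and 1 to 2.

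Leaving out 1 mouse turned the sign of several shares, in percentage points: Gria2 between the odor groups (-1.407 to 0.815), Grin2b of Grin2a plus Grin2b at 30 min (-5.791 to 2.385) and 120 min (-3.192 to 4.984), Dlg4 of the Dlg scaffolds at 120 min (-2.455 to 0.717) and between the odor groups (-0.718 to 2.301). None of these passed a test.

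The labels do not say that a mouse number marks a shared litter, batch or day. Same-numbered mice deviated together with correlations of 0.081 to 0.444 across all tested genes, and 2 pairs were under 0.1, although every mouse correlated best with its own number. With the replicate block (mouse number as a block), 10, 8 and 2 members had an unadjusted p under 0.05 at 30 min, 120 min and between the odor groups, and 0 were called. In the block fit the Homer1 difference at 120 min was 1.627 with an adjusted p of 0.0252, and with GC correction and the block 1.624 with an adjusted p of 0.0450. Reads on a gene scale with its RPKM and its length. Depth of 7.15 to 29.9 megareads therefore limits short members near 1 RPKM most, such as Grin3b (longest transcript of 3283 bases). Grin2a is also low in RPKM, but its longest transcript has 14634 bases.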

Other observations

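The summed RPKM of the red blood cell markers Hbb-b1, Hba-a1 and Alas2 was 38.0 to 145 in clean air, 153 to 197 at 30 min and 46.3 to 189 at 120 min. Hba-a1 is listed at 0 in every library. The granule and GABAergic interneuron list, of which 7 were measured, had summed levels of 1596 to 1776 RPKM in clean air, 1636 to 1970 at 30 min and 1612 to 1762 at 120 min. The dopaminergic list of 4 had 168 to 197, 202 to 236 and 188 to 275 RPKM, and 30 min did not overlap clean air in that sum, which was not tested. The sensory neuron list of 5 had 165 to 286, 241 to 302 and 160 to 314 RPKM. The oligodendrocyte list, of which 5 of 6 were measured, had 911 to 990, 860 to 1179 and 968 to 1427 RPKM. None of the 40 tested markers was called by limma in any comparison. At an unadjusted p under 0.05, 4 lay above clean air at 30 min (background 3.62%) and 4 at 120 min (background 5.72%). At 120 min 1 was higher than at 30 min (background 1.38%) and 1 lower (background 1.99%).

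The identifiers that GENCODE M21 names Grin3a and Shank1 carry other symbols in the deposited table (mKIAA1973 and AK082624) and so are outside the set. Grin3a, an NMDA subunit gene, had 2.24 ± 0.760 RPKM in clean air, 4.19 ± 2.06 at 30 min and 4.07 ± 0.909 at 120 min. Shank1, a scaffold gene, had 113 ± 15.5, 98.9 ± 24.2 and 119 ± 5.38 RPKM, well above Shank3 at 11.6 ± 3.46 RPKM in clean air. Shank2 was not analysed here.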
